A study of Mus musculus with 474 samples.

Results

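The genes described here are the 37 carried by the mouse mitochondrial genome, out of 55450 genes in the deposited count tables. They were chosen as every gene whose Ensembl identifier has a symbol that starts with mt- in GENCODE mouse release M21 (assembly GRCm38). Of these, 13 encode proteins of the respiratory chain, 2 encode the ribosomal RNAs mt-Rnr1 and mt-Rnr2, and 22 encode transfer RNAs. They were read in single daughters of haematopoietic stem cells (HSCs, the blood-forming stem cells of the bone marrow). Each cell was sequenced in a well of its own by Smart-Seq2, which copies polyadenylated RNA over its full length. All cells came from wild-type male C57BL/6JRj mice of 12 to 19 weeks, divided for the first time in culture and were picked by micromanipulator. Where both daughters of a division were sequenced, 1 is labelled high, as having received more lysosomes than its sister, and the other low. These divisions came from 4 culture experiments of sequencing run 5, with 20, 17, 11 and 19 divisions in experiments 60, 68, 72 and 73, and from 5 of run 4, with 12, 27, 33, 38 and 26 divisions in experiments 69, 74, 75, 76 and 77. The labels place all cells in 1 group, and how the lysosome label was set and which animals fed which experiment are not stated, so p-values measure the spread between these experiments or divisions only.

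Mitochondrial DNA is a small circular genome present in many copies per cell. Both of its strands are transcribed into long precursors, which are cut largely at the tRNAs into mRNAs, rRNAs and tRNAs, so members of 1 precursor start from the same transcription event and part in their levels through processing and decay. HSCs are known for relying little on respiration at rest, and the mitochondria and lysosomes that a daughter receives at division have been studied as correlates of its later fate.

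Cells held between 76735 and 2444858 gene counts (median 846198) on a median of 9867.5 genes. Spike-ins, synthetic RNAs added to each well, took a median of 0.514% to 0.646% of counts in experiments of run 5 and 0.0187% to 0.0304% in those of run 4. The median of the 8 HSC markers was detected in 94.9% of cells, with a range from 28.7% (Slamf1) to 100% (Mecom). Of the markers of other blood cells, Mpo and Ctsg (myeloid), Cd3e and Rag1 (lymphoid) and C1qa (macrophage) had no count in any cell. Others were widely detected, Lyz2 of the macrophage list in 99.6% of cells, Prtn3 of the myeloid list in 74.1% and Pf4 of the megakaryocyte list in 69.6%. The median marker was detected in 56.2% of cells in the megakaryocyte list, 15.5% in the macrophage, 5.70% in the erythroid, 3.69% in the myeloid and 0.317% in the lymphoid list. In counts per 1000000 gene counts (CPM), the HSC markers summed to 3534 in high daughters against 3427 in low daughters, and the megakaryocyte markers to 140.6 in high daughters against 152.9 in low daughters. Lyz2 had 194.6 CPM in high daughters against 182.1 CPM in low daughters. The part of these markers in the results below was not tested.

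A stretch of the mitochondrial genome had almost no counts. It is the stretch spanned by near-identical copies of mitochondrial genes in a row on chromosome 1. Of the 37 genes, 25 had a count in at least 1 cell and 12 had none. The 12 without a count were mt-Co2 and mt-Co3 (subunits of cytochrome c oxidase), mt-Atp6 and mt-Atp8 (subunits of ATP synthase), mt-Nd4l (a subunit of complex I) and the tRNA genes mt-Tw, mt-Ty, mt-Ts1, mt-Td, mt-Tk, mt-Tg and mt-Th. No count in any cell allows a count in up to 0.633% of cells. Transcripts of annotated nuclear pseudogenes were searched for matches to the mitochondrial genes at 95% identity or more over at least 100 bases. In all, 7 such pseudogenes lay in a row on the minus strand of chromosome 1 (chr1:24611535-24616197, 4663 bases, GRCm38). Each matched 1 mitochondrial gene, at 99.7% to 100% identity. The matches ran from base 6390 of the mitochondrial genome, in the end of mt-Co1, to base 11042, in the middle of mt-Nd4. Bases between the matches were not compared, since only transcripts were searched. The tRNA genes there are shorter than 100 bases, and mt-Atp8 matched no pseudogene. Of the 11 members that lie wholly between bases 6390 and 11042, 9 had no count in any cell, against 3 of the 26 other members.

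The copies of mt-Co2 (Gm28661), mt-Co3 (Gm28437), mt-Atp6 (Gm10925), mt-Nd4l (Gm10222) and the first 876 bases of mt-Nd4 (Gm28439) matched with no mismatch. Of the copies on chromosome 1, only those of mt-Nd3 and mt-Co1 differed, by 1 base each. The sequences around these bases are shown because they are the places where transcript and copy part, with the differing base in capitals, from the GENCODE M21 transcripts. Positions are counted from 1 at the 5′ end of the mitochondrial transcript, and the differences are T3C for mt-Nd3 (chrM:9459-9491, plus strand) against Gm28438 (chr1:24613087-24613119, minus strand) and A1066T for mt-Co1 (chrM:6363-6423, plus strand) against Gm29216 (chr1:24616155-24616197, minus strand).
mt-Nd3: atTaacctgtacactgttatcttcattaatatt
Gm28438: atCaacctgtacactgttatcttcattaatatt
mt-Co1: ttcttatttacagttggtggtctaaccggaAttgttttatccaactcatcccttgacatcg
Gm29216: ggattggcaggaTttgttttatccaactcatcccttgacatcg
The line of Gm29216 is shorter because its annotated transcript starts there, and its first bases lie outside the match.

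The copies themselves held few counts. The 7 pseudogenes on chromosome 1 held 98 counts over all cells together, the most on Gm28437 (50 counts, 44 cells with a count), and none of them had more than 2 counts in a cell. mt-Nd3, which encodes a complex I subunit and differs from its copy at base 3, had a count in 50.6% of cells, at most 9 counts in a cell and a mean of 1.32 CPM. mt-Tr, the tRNA gene beside it, had a count in 2.53% of cells. mt-Atp8 has no annotated copy of its own. It starts after the match of mt-Co2, and its end overlaps the match of mt-Atp6. The length of the reads, and how reads that match more than 1 place were counted, are both not stated. The part of the copies in the empty stretch was not tested, and zeros there do not show that these genes were silent. Copies of mt-Co1, mt-Co2 and mt-Nd2 on chromosome 2 (Gm13340, Gm13341 and Gm13339, 95.9% to 97.6% identity) had no count, and a copy of mt-Nd5 on chromosome 13 (Gm4076, 95.2%) had 42.

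**Figure D1:**
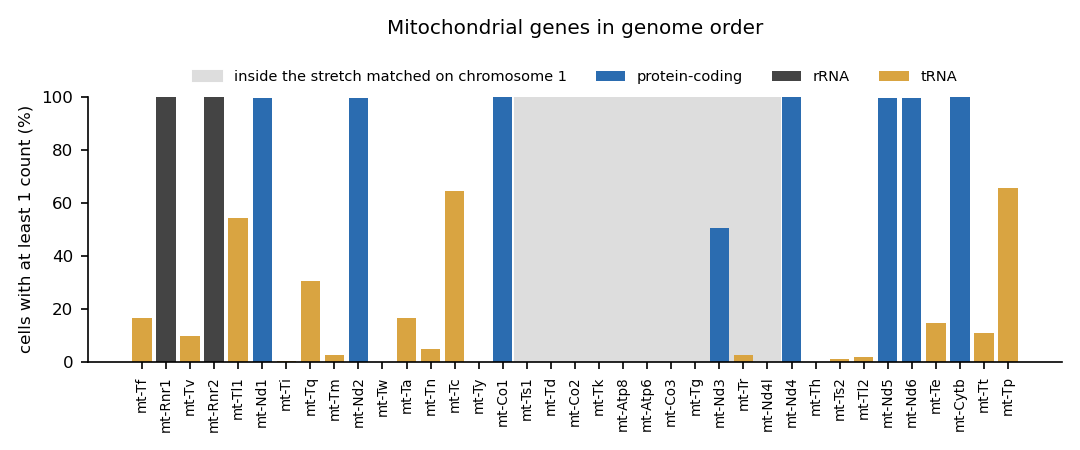
Percent of cells with at least 1 count (vertical axis) for each of the 37 mitochondrial genes in genome order (horizontal axis), coloured by class. Members wholly inside the stretch spanned by the matches on chromosome 1 are shaded. Inside the shading, mt-Nd3 (50.6%) and mt-Tr (2.53%) had counts, and the other 9 genes had none.

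Both rRNAs and 7 mRNAs had counts in nearly every cell and carried almost the whole mitochondrial signal. mt-Rnr2, mt-Rnr1, mt-Co1, mt-Nd4 and mt-Cytb had a count in every cell, and mt-Nd1, mt-Nd2, mt-Nd5 and mt-Nd6 in 99.8%. mt-Rnr2, the RNA of the large mitochondrial ribosomal subunit, held 62.9% of all mitochondrial counts, and mt-Rnr1, that of the small subunit, held 4.16%. mt-Cytb, the single mitochondrially encoded subunit of complex III, held 11.4%. Transfer RNAs, which are short and not polyadenylated as mature molecules, held a median of 0.000605% of the gene counts of a cell.

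Levels of different genes were compared as CPM per kilobase of gene, given as mean ± SD over 9 experiments. On this scale mt-Rnr2 (chrM:1094-2675) was first with 7357 ± 983. mt-Cytb (chrM:14145-15288) followed with 1670 ± 472.4 and mt-Nd1 (chrM:2751-3707), a core complex I subunit, with 1195 ± 298.3. Their spreads overlap, and so does that of mt-Rnr1 (chrM:70-1024) with 893 ± 412.9. Compared within experiments, mt-Cytb lay above mt-Nd1 in every one, most narrowly in 72 (883.2 against 875.4). mt-Co1 (chrM:5328-6872), the catalytic core of cytochrome c oxidase, had 658 ± 72.7. Of the other complex I subunits, mt-Nd5 (chrM:11742-13565) had 457.5 ± 53.2, mt-Nd2 (chrM:3914-4951) had 334.1 ± 96.01 and mt-Nd4 (chrM:10167-11544) had 235.9 ± 36.1. mt-Nd6 (chrM:13552-14070), also of complex I and the only protein gene on the other strand, was last of the 9 genes with 202.8 ± 55.4, within the spread of mt-Nd4. It lay below mt-Nd4 in every experiment except 60 (270.1 for mt-Nd6 against 246.7 for mt-Nd4). Whether counting used the strand is not given, so reads from mt-Nd6 and from RNA antisense to it, and from the bases it shares with mt-Nd5, cannot be told apart.

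The order depends on the length used for the genes that run into the copies. Where the length was taken over bases outside copies of at least 99% identity, a setting chosen after seeing the data, mt-Co1 had 957 ± 105.8 and moved up to rank 4, and mt-Nd4 had 647 ± 99.1 and moved up to rank 6. The same counts were divided by the shorter length, so the values of both genes could only rise. Whether reads from the copied bases were counted was not examined. Of the 9 genes, 4 kept their rank.

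The tRNA genes were sparse. A count in at least 20% of cells was seen for 4 of the 22, mt-Tp (65.6% of cells, tRNA for proline), mt-Tc (64.6%, cysteine), mt-Tl1 (54.4%, leucine) and mt-Tq (30.4%, glutamine). Per kilobase, mt-Tp had 29.2 ± 4.91, mt-Tc 29.1 ± 8.47, mt-Tl1 18.9 ± 9.73 and mt-Tq 8.05 ± 3.05 CPM, and mt-Tp and mt-Tc did not differ beyond their spread. The largest count of any of these 4 in a cell was 11. A further 11 tRNA genes had a count in 0.211% (mt-Ti) to 16.7% (mt-Tf and mt-Ta) of cells, and 7 had none.

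Per cell, mitochondrial genes took a median of 1.637% of gene counts, and 3 cells stood apart. The lowest was a low daughter of experiment 68 with 0.0703%, whose sister had 1.525%, with counts on only 5 of the 37 genes. This cell held 767803 gene counts on 6402 genes, with a spike-in share of 2.41%, where the medians of its experiment were 10286 genes and 0.632%. A high daughter of experiment 68 without a sequenced sister had 0.171%, on 142693 gene counts, and its spike-in share was 36%. The highest was a high daughter of experiment 69 with 13.9%, whose sister had 1.656%, with mt-Rnr2 at 93370 CPM. The next cells had 0.369% and 5.01%. These include 2 divisions with both daughters, without which the differences between daughters and the sharing between sisters are also given.

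**Figure D2:**
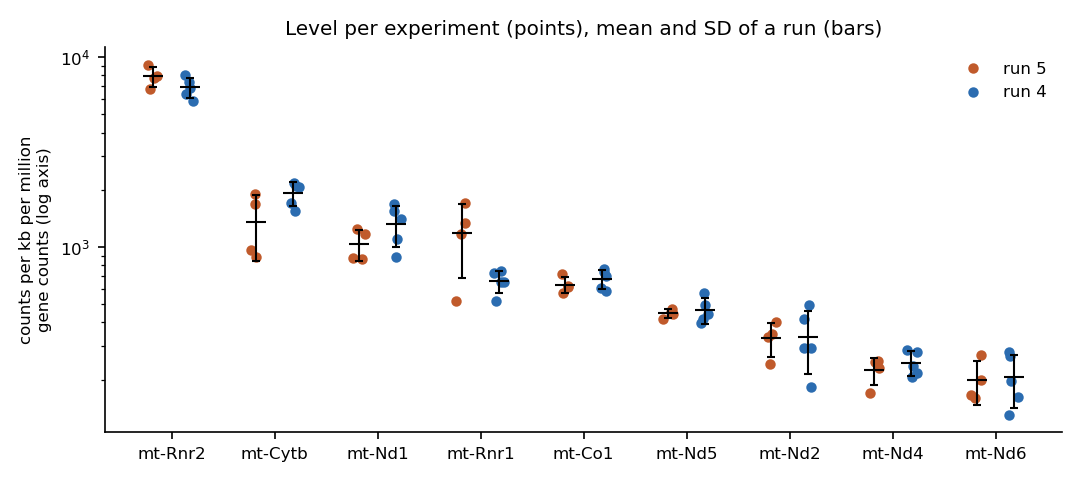
Mean level of the 9 well-detected genes per culture experiment (points) in run 5 and run 4, as CPM per kilobase on a log axis, with the mean and SD of each run (bars). mt-Rnr2 lies above all others in every experiment, and among the run 5 points those of mt-Rnr1 and mt-Cytb spread most.

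No mitochondrial transcript passed the test between high and low lysosome daughters. Summed counts per experiment and label were compared with edgeR's quasi-likelihood test with the experiment as block (Benjamini-Hochberg adjustment over all genes tested). None of the 14 mitochondrial genes that passed the filter on low counts was called at an adjusted p of 0.05, and none at an unadjusted p of 0.05. None of all 15854 genes tested was called (0%), while 4.15% had an unadjusted p under 0.05, DESeq2 called 3 genes (0.0189%), none of them mitochondrial, and limma over divisions called 0 of 11699, with 5.78% under an unadjusted p of 0.05.

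The 9 well-detected genes lay close to 0. mt-Cytb had 958 to 2762 CPM with a median of 2064 in high daughters of the 9 experiments, against 1027 to 2360 CPM with a median of 1874 in low daughters. On the log2 scale, high minus low came to 0.04 ± 0.04 (SE; edgeR adjusted p = 0.999), with high daughters higher in 6 of 9 experiments. mt-Rnr2 had 9933 to 15965 CPM with a median of 11644 in high daughters, against 8688 to 14228 CPM with a median of 11136 in low ones, a difference of 0.03 ± 0.05. mt-Rnr1 had 471.3 to 1532 CPM with a median of 756 in high daughters, against 456.2 to 1717 CPM with a median of 673 in low ones, a difference of 0.01 ± 0.09. In each of these genes the 2 ranges overlapped over most of their width.

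mt-Nd5 had 667 to 1266 CPM with a median of 845 in high daughters, against 716 to 872 CPM with a median of 791 in low daughters. Its mean CPM was higher in high daughters in 8 of 9 experiments, yet the log2 difference was only 0.04 ± 0.05. Experiment 69, which holds the cell of 13.9%, had 1266 CPM in high daughters against 829.7 CPM in low ones. Its mean difference of log2(CPM + 1) was -0.11, and -0.45 without the division of that cell. mt-Nd2 differed by 0.07 ± 0.08, mt-Nd1 by 0.04 ± 0.07, mt-Nd6 by 0.04 ± 0.07, mt-Nd4 by 0.01 ± 0.06 and mt-Co1 by -0.01 ± 0.04. For the sparse genes the errors were wide, from 0.33 for mt-Tp (0.14) to 0.58 for mt-Tl1 (0.31), with mt-Tc at -0.06 ± 0.40, mt-Nd3 at 0.28 ± 0.42 and mt-Tq at -0.35 ± 0.54. Of the 14 genes, 11 had a difference above 0, against 49.8% of all genes. Here and by run, these signs are not independent results, since the genes share libraries and totals and the 9 well-detected ones move together. Without the 2 divisions, mt-Rnr1 (-0.04), mt-Rnr2 (-0.03), mt-Nd1, mt-Nd2, mt-Nd4, mt-Nd5 and mt-Nd6 turned below 0.

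**Figure D3:**
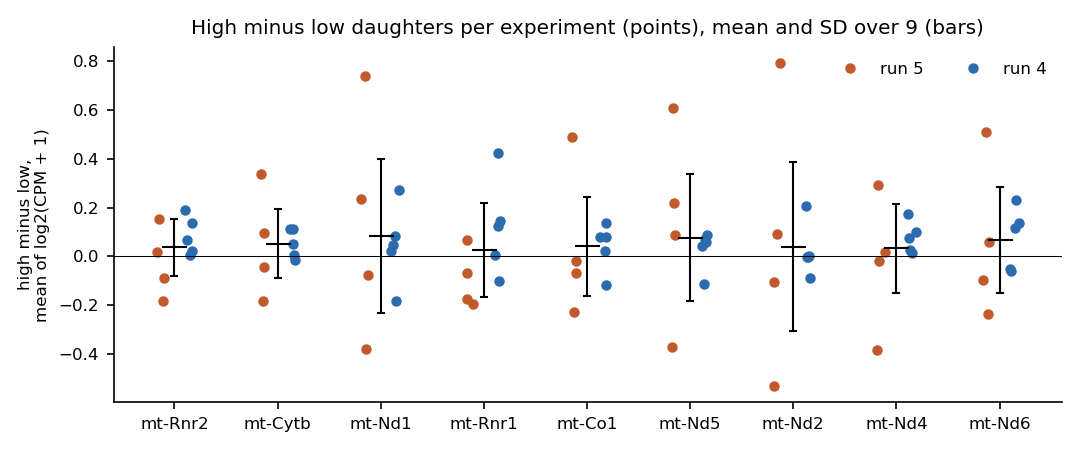
High minus low daughters of a division, as the mean difference of log2(CPM + 1) in each experiment (points) of run 5 and run 4, for the 9 well-detected genes, with the mean and SD over 9 experiments (bars). Every bar spans 0, and experiments 68 (0.79) and 72 (-0.53) lie farthest apart for mt-Nd2. Experiment 68 holds the low daughter with a share of 0.0703%, without whose division it lay at 0.30.

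In run 5, 2 of the 14 genes had a log2 difference above 0 (48.8% of all genes), and in run 4, 13 of 14 (50.3% of all genes). mt-Rnr2 differed by -0.12 ± 0.04 in run 5 and by 0.15 ± 0.06 in run 4. The difference between the runs was tested as an interaction term in edgeR and gave -0.27 ± 0.08 for mt-Rnr2 (unadjusted p = 0.0078, adjusted p = 1) and -0.38 ± 0.16 for mt-Rnr1 (unadjusted p = 0.0304, adjusted p = 1). No gene of 15854 was called for it (0%), with 4.24% under an unadjusted p of 0.05. Without the 2 divisions that stand apart, 2 of 14 genes lay above 0 in run 5 (49.1% of all genes) and 12 of 14 in run 4 (50.4% of all genes). mt-Rnr2 then differed by -0.12 ± 0.03 in run 5 and by 0.05 ± 0.03 in run 4, and the interaction was -0.18 ± 0.05 for mt-Rnr2 (unadjusted p = 0.00226) and -0.30 ± 0.10 for mt-Rnr1 (unadjusted p = 0.0124), with an edgeR adjusted p of 1 for both.

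The mitochondrial share of gene counts was 1.867% ± 0.304 in high daughters and 1.770% ± 0.221 in low daughters (SD, n = 9 experiments), a mean difference of 0.0973 ± 0.345 percentage points, with the high daughters higher in 6 of 9 experiments. Experiment 69, with 2.54% in high and 1.60% in low daughters, holds the cell of 13.9%. Without the 2 divisions the difference was -0.0267 ± 0.142 points, and the high daughters were higher in 4 of 9 experiments. The high daughter had the larger share in 54.2% of divisions (95% exact binomial interval 47.1% to 61.2%). In run 5 the difference was -0.0784 ± 0.162 points (n = 4), and in run 4 it was 0.238 ± 0.404 points (n = 5). Leaving out both divisions gave -0.101 ± 0.147 points in run 5 and 0.0325 ± 0.120 points in run 4, and experiment 69 had -0.0882 points.

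Sisters resembled each other in several mitochondrial transcripts. Resemblance was measured as an intraclass correlation of log2(CPM + 1) between sisters after centring on experiment and plate. It is near 1 where sisters differ little compared with divisions, and near 0 where they differ as much as unrelated cells. An F test over divisions called 8 of the 14 mitochondrial genes that were detected in at least 20% of cells, where 26.4% of all 11699 genes tested were called (Benjamini-Hochberg adjustment over all of them). The median was 0.189 for the 14 genes and 0.0858 for all genes. Each gene's value rests on the same divisions, and the genes called, except mt-Nd6 on the other strand, share a precursor. The 8 are thus not 8 independent results.

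mt-Cytb was shared most, with 0.34 (95% interval 0.21 to 0.46, adjusted p = 6.42e-06), above 94.03% of all genes. mt-Rnr1 had 0.31 (0.18 to 0.43, adjusted p = 4.54e-05). mt-Nd2 had 0.26 (adjusted p = 0.00116), mt-Nd6 0.25 (0.00176), mt-Rnr2 0.22 (0.00508), mt-Co1 0.21 (0.00731), mt-Nd4 0.20 (0.0118) and mt-Nd3 0.18 (0.029). mt-Nd1 (0.15, adjusted p = 0.0558) and mt-Nd5 (0.12, 0.125) did not pass. Of the tRNA genes, mt-Tc had 0.10, mt-Tl1 0.08, mt-Tq 0.01 and mt-Tp -0.09, and none passed. Even for mt-Cytb the SD within a division, 0.459 on the log2 scale, was larger than that between divisions, 0.330.

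Without the 2 divisions that stand apart, 10 of 14 genes were called (27.7% of all genes). Both divisions were picked by the mitochondrial share itself and hold sisters far apart in it. Leaving them out therefore favours higher values, here and below, and is no separate evidence of resemblance. mt-Cytb then had 0.43, mt-Nd2 0.43, mt-Co1 0.41 and mt-Nd1 0.41, and mt-Nd5, at 0.31, also passed. With the cell cycle scores regressed out, 7 of 14 genes passed (11.5% of all genes), the 8 called genes except mt-Nd3, and mt-Cytb stood at 0.32.

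**Figure D4:**
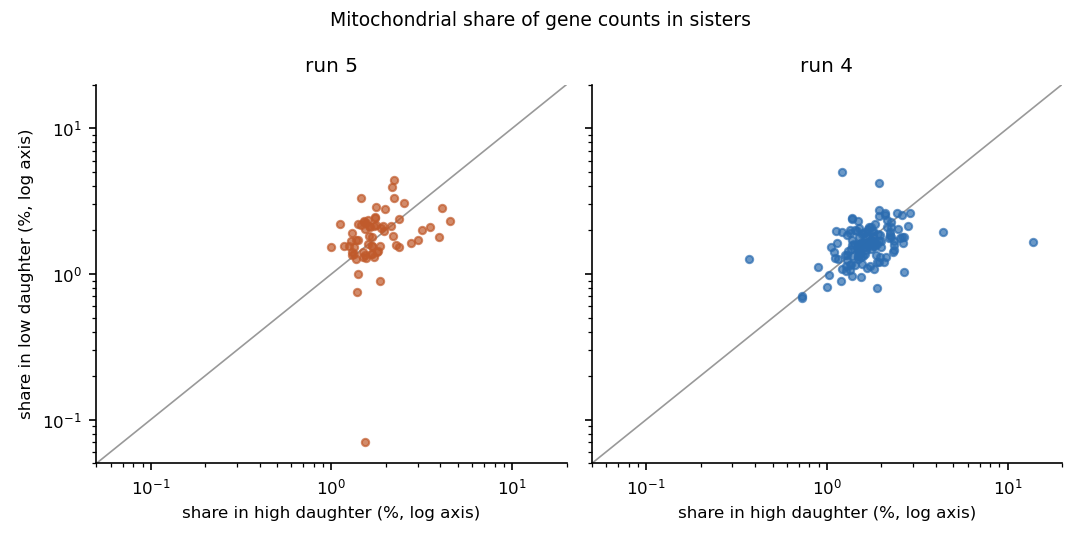
Mitochondrial share of gene counts in the high daughter (horizontal) and the low daughter (vertical) of each division of run 5 (67 divisions) and run 4, both in percent on log axes, with the line of equal shares. Most divisions lie between 1% and 3% in both daughters, and the divisions with a daughter at 0.0703% (run 5) and at 13.9% (run 4) lie far from the line.

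The mRNAs other than mt-Nd3 had higher values in run 4, and the intervals of the rRNAs overlapped between the runs. In run 5, mt-Cytb had an intraclass correlation of 0.01 (-0.23 to 0.25), and in run 4 it had 0.51 (0.38 to 0.63). mt-Co1 had 0.05 in run 5 and 0.44 in run 4, mt-Nd2 0.07 in run 5 and 0.42 in run 4, and mt-Nd1 0.02 in run 5 and 0.39 in run 4. The intervals of mt-Cytb, mt-Co1 and mt-Nd6 did not overlap between the runs, although those of mt-Co1 did without the 2 divisions (-0.10 to 0.37 in run 5 and 0.36 to 0.62 in run 4). mt-Rnr1 had 0.32 in run 5 and 0.31 in run 4, and mt-Rnr2 0.27 in run 5 and 0.18 in run 4. In run 5, 1 of 14 genes was called (mt-Rnr1; 10.3% of all genes), and in run 4, 8 of 14 (21.2% of all genes), among them mt-Nd1 and mt-Nd5. The difference between the runs itself was not tested.

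Without the 2 divisions, mt-Nd2 had 0.28 in run 5 and 0.49 in run 4, mt-Nd1 0.23 in run 5 and 0.48 in run 4, and mt-Cytb 0.04 in run 5 and 0.56 in run 4. Both rRNAs were then called in run 5 (2 of 14 genes, 11.1% of all genes), and 9 of 14 genes in run 4 (21.7% of all genes).

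Within run 4, experiments 75 and 76 gave the highest values of mt-Cytb, mt-Nd2 and mt-Nd6. mt-Cytb had 0.72 in experiment 75 and 0.57 in experiment 76, against 0.31 in 77, 0.23 in 74 and 0.06 in 69. mt-Nd6 had 0.61 in experiment 75 and 0.71 in 76, and at most 0.14 in the other experiments of the run. Without experiment 75, 5 of 14 genes were called (23.3% of all genes). The calls of mt-Cytb (0.17, adjusted p = 0.0624), mt-Co1 (0.10, 0.21) and mt-Nd4 (0.11, 0.177) were then lost. That of mt-Nd6 was lost without experiment 76 (0.12, adjusted p = 0.17), and that of mt-Nd3 without experiment 68, 73 or 74. The values of single experiments rest on 12 to 38 divisions in run 4 and are wide. Some divisions of experiments 75 and 76 had a low share of mitochondrial mRNA in both daughters. In experiment 75, high and low daughters had 0.182% and 0.209%, 0.24% and 0.226%, and 0.241% and 0.241%, beside a median of 0.611%. In experiment 76 such pairs had 0.31% and 0.249%, and 0.343% and 0.286%, beside a median of 0.541%. The part of these divisions in the sharing was not tested.

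**Figure D5:**
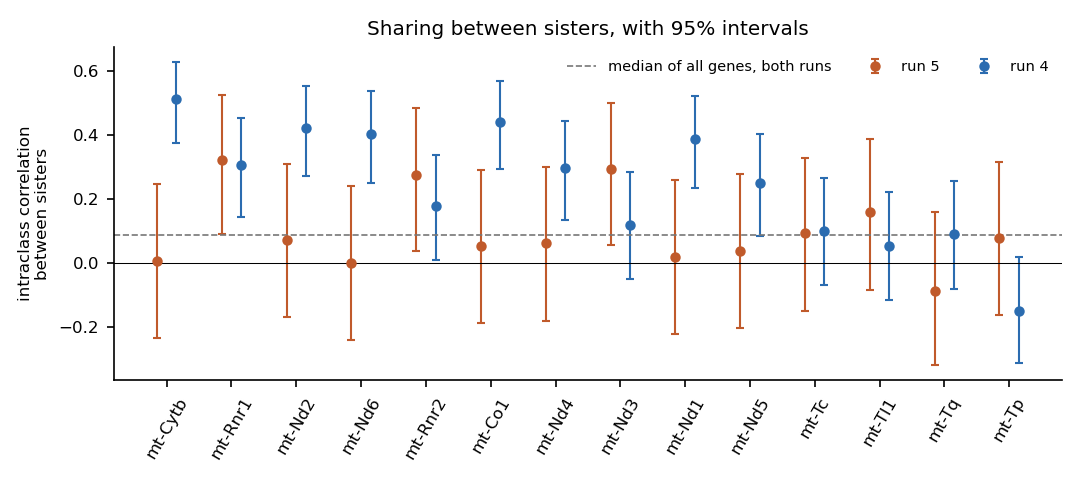
Intraclass correlation between sisters (vertical axis) of the 14 mitochondrial genes detected in at least 20% of cells, in run 5 and run 4 (points with 95% intervals), with the median of all genes over both runs as a dashed line. The mRNAs other than mt-Nd3 lie higher in run 4 than in run 5, with mt-Cytb at 0.01 in run 5 and 0.51 in run 4, and the intervals of the 2 rRNAs overlap between the runs.

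The mitochondrial share as a whole had an intraclass correlation of 0.23 (0.09 to 0.35), given as a description, and of 0.35 (0.22 to 0.47) without the 2 divisions. That of its mRNA part was 0.24 (0.11 to 0.37) with them and 0.42 (0.30 to 0.53) without them, and that of its rRNA part 0.23 with them and 0.31 without them. By run, the mRNA part had 0.01 (-0.23 to 0.25) in run 5 and 0.42 (0.27 to 0.55) in run 4, and the rRNA part 0.28 (0.04 to 0.49) in run 5 and 0.18 (0.01 to 0.34) in run 4. With those divisions left out the mRNA part had 0.06 in run 5 and 0.53 in run 4, and the rRNA part 0.36 in run 5 and 0.28 in run 4. Sisters differed in their share by a median of 0.319 percentage points, and unrelated cells sharing an experiment and plate by 0.410 points.

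No mitochondrial gene differed between the runs past the test. mt-Rnr1 had 1624, 497, 1274 and 1119 CPM in experiments 60, 68, 72 and 73 of run 5, against 696, 715, 624, 498 and 626 CPM in experiments 69, 74, 75, 76 and 77 of run 4. Experiments 60, 72 and 73 lay above every experiment of run 4, and experiment 68 at the level of experiment 76, the lowest of run 4. Over the sums per experiment the log2 difference, run 5 over run 4, was 0.83 ± 0.26 (edgeR adjusted p = 0.543, unadjusted p = 0.00782). mt-Cytb had 1099, 1932, 1010 and 2183 CPM in the same experiments of run 5, against 2488, 2399, 2357, 1956 and 1772 CPM in those of run 4, a difference of -0.42 ± 0.22 (adjusted p = 0.573). Its experiments 60 and 72 lay below all others, and 68 and 73 among those of run 4.

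Of the 16 mitochondrial genes tested between the runs, 0 were called, as were 0 of all 14788 genes (0%), with 1 of the 16 and 9.14% of all genes under an unadjusted p of 0.05. DESeq2 called 36 genes (0.243%), none of them mitochondrial. mt-Rnr2 differed by 0.24 ± 0.12 and mt-Nd1 by -0.24 ± 0.18, and mt-Nd2, mt-Co1, mt-Nd4, mt-Nd5 and mt-Nd6 by -0.06 to 0.08. Run, plate and spike-in share differ together between these cultures and cannot be told apart. Median totals were higher in experiments 68, 72 and 73 of run 5 than in every experiment of run 4, while experiment 60 lay within the range of run 4.

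Between experiments of 1 run, several mitochondrial transcripts changed in level. A limma F test on division means called 4 of 14 genes in run 5 (10.4% of all 11699 genes) and 5 of 14 in run 4 (12.5% of all genes). In run 5 these were mt-Cytb (adjusted p = 5.04e-07), mt-Rnr1 (7.65e-06), mt-Tl1 (0.00111) and mt-Nd6 (0.025). mt-Nd6 had medians over cells of 117.6, 96.6, 83.5 and 76.5 CPM in experiments 60, 68, 72 and 73. Medians of mt-Cytb were 1028 CPM in experiment 60, 1947 in 68, 979 in 72 and 1960 in 73. Those of mt-Rnr1 were 1280, 384.9, 1204 and 841 CPM in the same experiments. Experiments 60 and 72 thus had the lowest mt-Cytb and the highest mt-Rnr1, and mt-Tl1, which had 0.501 CPM in 60, 1.16 in 68, 0.604 in 72 and 2.47 in 73 on average, was also lowest in 60 and 72. Ratios within the mitochondrial pool, which do not depend on nuclear counts, also set experiments 60 and 72 apart from 68. The ratio of mt-Cytb to mt-Co1 was 1.24 and 1.06 in experiments 60 and 72, and 1.90 to 2.30 in the other 7. The ratio of mt-Rnr2 to mt-Rnr1 was 8.90, 9.87 and 10.9 in experiments 60, 72 and 73, and 14.9 to 21.6 in the other 6. Median totals were 588925.5 counts in experiment 60, 1183183.5 in 68, 1145852.5 in 72 and 1129777 in 73, and each lies on a plate of its own.

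In run 4 the 5 genes called encode complex I subunits, namely mt-Nd2 (adjusted p = 1.87e-07), mt-Nd1 (3.36e-06), mt-Nd6 (5.84e-06), mt-Nd4 (0.026) and mt-Nd3 (0.0338). Medians over cells of mt-Nd1 were 1260, 1491, 1244, 1068 and 808 CPM in experiments 69, 74, 75, 76 and 77. Those of mt-Nd6 were 103.8, 137.6, 94.2, 82.5 and 63.7 CPM. Those of mt-Nd2 were 335.6 CPM in experiment 69, 290.5 in 75 and 160.1 in 77. Experiment 74 was highest and 77 lowest for each of these. mt-Nd5, also of complex I (adjusted p = 0.123), mt-Rnr1 (0.0698), mt-Cytb (0.0895) and mt-Rnr2 (0.193) did not pass. With plate as a further term, which could be fitted only without experiment 77, 1 mitochondrial gene was called (mt-Rnr2, adjusted p = 0.00929; 1.04% of all genes), and none of the complex I genes passed. Experiments 74, 75 and 76 each lie on 1 plate, and of the experiments in that fit only 69 spans 3 plates, so plate and experiment can hardly be told apart. In run 5 experiment and plate coincide. Without the divisions that stand apart, 7 of 14 genes were called in run 5 (11.1% of all genes), mt-Nd1, mt-Nd2 and mt-Nd4 in addition, and 6 of 14 in run 4 (12.6% of all genes), mt-Rnr1 in addition (adjusted p = 0.0431).

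Across all divisions, after centring on experiment and plate, the 9 well-detected genes moved together in unequal degree. The values that follow are Spearman correlations of division means, given as descriptions, and the genes share libraries and totals. mt-Rnr1 and mt-Rnr2, neighbours on 1 precursor, had the highest correlation with 0.82. mt-Nd1 and mt-Nd2 had 0.75, and mt-Nd5 and mt-Nd6, whose ends overlap on opposite strands, had 0.71. mt-Rnr1 was least tied to mt-Cytb (0.17) and mt-Nd1 (0.18), although mt-Nd1 is the next protein gene downstream of the rRNAs. The summed mRNA level had 0.52 with the summed rRNA level (0.49 in run 5 and 0.54 in run 4). The rRNA sum had -0.25 with total counts and 0.18 with the spike-in share, and the mRNA sum -0.12 and -0.05.

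Among 7330 nuclear genes detected in at least 80% of cells, those most like the summed mitochondrial mRNA level were Npm1 (0.43), the nucleolar chaperone nucleophosmin, the ribosomal protein genes Rplp0 (0.42), Rpl29 (0.39) and Rps2 (0.38), and Srgn (0.41), which encodes the proteoglycan serglycin. Those most opposed were Fto (-0.38), an RNA demethylase gene, Utrn (-0.38), the gene of the cytoskeletal protein utrophin, 2010111I01Rik (-0.36), Smyd3 (-0.36), a methyltransferase gene, and Runx1 (-0.35), a transcription factor gene needed for blood stem cell formation. Npm1 had 0.23 in run 5 and 0.53 in run 4.

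Nuclear genes that express the mitochondrial genome and supply its partners were followed in 4 lists. These are 38 genes of mitochondrial transcription, replication and RNA processing, 78 of the mitochondrial ribosome, 9 regulators of biogenesis and the nuclear respiratory chain genes, which include assembly factors. Between high and low daughters edgeR called none of the 36, 71, 9 and 90 genes tested in these lists (0% of all genes). The 2 ribosomal genes Mrpl4 (91.2 CPM in high daughters against 79.7 CPM in low ones, log2 difference 0.19 ± 0.08) and Mrpl9 (55.5 CPM in high daughters against 47.9 CPM in low ones, 0.24 ± 0.11) had an unadjusted p under 0.05, as did Ppargc1a, the coactivator of biogenesis, at 2.84 CPM in high daughters against 6.18 CPM in low ones (-1.68 ± 0.78). Adjusted p was 0.999 for all 3. They are 2 of the 71 ribosomal genes and 1 of the 9 regulators tested, beside 4.15% of all genes under an unadjusted p of 0.05. None of the 36 genes of the RNA machinery or the 90 of the respiratory chain was under it. Mean CPM was higher in high daughters in 7 of 9 experiments for Mrpl4 and Mrpl9, and in 4 of 9 for Ppargc1a. Next in these lists were Mrps5, Mrpl16, Gabpb1, Ppargc1b, Gabpa, the RNA processing genes Trmt10c (0.26 ± 0.13), Mterf3, Nsun4 and Tbrg4, and the respiratory chain genes Atp5d (0.09 ± 0.05), Ndufa6, Cox4i2 and Ndufa12.

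Between the runs none of the lists' genes passed. The log2 difference, run 5 over run 4, was above 0 in 12 of 36 genes of the RNA machinery, 11 of 71 of the ribosome, 7 of 9 regulators and 18 of 91 of the respiratory chain (50.6% of all genes). The smallest unadjusted p was that of Mrpl45 (log2 difference -0.56 ± 0.15, edgeR adjusted p = 0.543). Esrra (0.68 ± 0.28), Ppargc1b (0.52 ± 0.24), Gabpa (0.33 ± 0.14) and Myc (-0.28 ± 0.17) came first among the regulators. The respiratory chain genes Sdhc, Ndufv1, Atp5a1 and Ndufb7 differed by -0.30 to -0.38, the RNA machinery genes Top1mt, Tefm, Nsun4 and Polrmt (the mitochondrial RNA polymerase) by -0.27 to -0.49, and the ribosomal genes Mrps18b, Mrpl46 and Mrpl1 by -0.48, -0.35 and 0.30. None of these passed.

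Between experiments, limma called 6 of 90 respiratory chain genes, 2 of 71 ribosomal genes, 1 of 36 genes of the RNA machinery and 0 of 8 regulators in run 5 (10.4% of all genes). In run 4 it called 21 of 90, 2 of 71, 3 of 36 and 0 of 8 in the same lists (12.5% of all genes). In run 5 the ATP synthase genes Atp5a1 (experiment means 243.8 to 465.7 CPM, adjusted p = 7.15e-05) and Atp5b (838 to 1304 CPM, 0.012), and the complex II gene Sdha (241.9 to 374.2 CPM, 0.0165) passed, as did Fastkd2 of the RNA machinery (0.0489) and Mrps10 and Mrpl10 of the ribosome. Nsun4, Tfb2m, Hsd17b10, Mrpl4, Mrps31, Esrra, Yy1, Gabpa and Ppargc1b were next and did not pass. In run 4, Grsf1, an RNA-binding protein of mitochondrial RNA granules, had the smallest p (62.2 to 121.3 CPM, adjusted p = 3.12e-05), and Tbrg4, Ssbp1, Mrpl42, Mrps12, Ndufa4, Atp5g1, Atp5b and Cox7c passed. Mterf1b, Mrps22, Mrps26, Ppargc1b, Pprc1, Gabpb1 and Myc did not. With plate as a term, 0 genes of the lists passed.

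Sharing between sisters was also read in the nuclear lists. The F test over divisions called 36 of 90 respiratory chain genes (40%), 18 of 71 ribosomal genes (25.4%), 2 of 36 genes of the RNA machinery (5.56%) and 1 of 8 regulators (12.5%), beside 26.4% of all genes. Whether the lists differ was not tested. The highest intraclass correlations were those of Atp5g1 (0.48), Cox7a2 (0.40), Atp5g3 (0.37) and Cox7b (0.36), of Mrpl30 (0.36), Mrps24 (0.35), Mrpl28 (0.34) and Mrpl51 (0.30), and of Myc (0.31), the growth regulator. Tbrg4 (0.18) and Twnk (0.17), the mitochondrial helicase, were the genes called in the RNA machinery, and Hsd17b10, Fastk, Pprc1, Nrf1 and Gabpa, at 0.12 to 0.14, did not pass. With the cell cycle regressed out, 27 genes of the 4 lists were called, against 57 without this step (11.5% of all genes, against 26.4%). The median correlation of the respiratory chain list with the summed mitochondrial mRNA level over divisions was 0.18 (84 genes), beside -0.01 for all 7330 genes. That of the ribosomal list was 0.10, of the RNA machinery 0.02 and of the regulators 0.03.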

How the data were processed

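The deposited values are counts, whole numbers of reads for each gene in each cell, which the authors left unnormalized. Per the submitters' processing notes, featureCounts, Subread 1.5.0 and SAMtools were used. Aligner and genome build: not given in the sources used here. Deposited metadata gave each cell's experiment, position, colony and lysosome label. Another 171 columns match no cell described here and were left out. All 474 cells had over 50000 counts on over 1000 genes, and 203 divisions (67 in run 5, 136 in run 4) had both daughters. The limit set by a count of 0 covers counting error only, since reads lack molecular identifiers, while intervals of intraclass correlations and of the share of divisions rest on the spread over divisions.

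Counts were summed per experiment and label, or per experiment, and tested with edgeR 4.0.16 (TMM, filterByExpr, quasi-likelihood F test) in R 4.3.3. Division means of log2(CPM + 1) were tested with limma 3.58.1, and intraclass correlations with a one-sided F test over divisions (genes detected in at least 20% of cells) in Python 3.11.15. Adjustment was over all genes tested, and the threshold was 0.05. DESeq2 1.42.0 was an alternative. Nuclear copies were found with BLAST 2.17.0 on GENCODE M21 transcripts. The edgeR and limma fits and the intraclass correlation were tested on simulated data. The experiment is the replicate block in the comparison of daughters, because both sums of an experiment come from sisters of the same divisions.

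Named are the protein-coding and rRNA genes, tRNA genes with a count in at least 20% of cells, the 4 genes of each nuclear list with the smallest unadjusted p in each fit, and the 5 nuclear genes with the highest and the 5 with the lowest correlation. The members and lists were chosen with earlier results of these data known. Leaving out the 2 divisions with an extreme mitochondrial share, also within each run, lengths outside copies and values of single experiments were chosen after seeing the data.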

Additional observations from a re-analysis of the deposited data

Results flagged for a closer look

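Of 45 groups of experiments examined for a value far from the others, 3 held one, and chance gives about 1 in 20. The mitochondrial share was higher in high than in low daughters by 0.939 percentage points in experiment 69, far from the other 8 experiments. That experiment holds the daughter with 13.9%, and its median difference over divisions was 0.0191 points. The mean difference of log2(CPM + 1) of mt-Co1, high minus low, was 0.491 in experiment 68, apart from the others, and that experiment holds the low daughter with 0.0703%, which had 1.30 CPM of mt-Co1. The same difference of mt-Nd4 was -0.382 in experiment 72, which has 11 divisions and no daughter with an extreme share. The part of single cells in the last value was not tested.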

How the results depend on the processing

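Of 190 alternative values for calls, the share and the order of levels, 21 moved. DESeq2 called 0.0189% of genes between daughters and 0.243% between runs, and leaving out 1 experiment gave 0 to 0.00662% between runs. For sharing between sisters, run 5 alone gave 10.3% of genes, 1 mitochondrial and 17 list genes, run 5 without the extreme divisions 11.1%, 2 and 18, the cell cycle regressed out 11.5% and 27 list genes, and no filter 11.5%. Leaving out 1 experiment gave 22.6% to 27% of genes and 5 to 11 mitochondrial genes. Between experiments, no filter gave 4.57% in run 4 and 3.95% in run 5, where more genes were tested. Plate as a term gave 1.04%, 1 mitochondrial and 0 list genes in run 4. In run 5 a pseudocount of 10 gave 16 list genes and 13.1% of all genes, against 9 and 10.4% with a pseudocount of 1. Calls thus rose over all genes too. Leaving out the extreme divisions in run 5 gave 7 mitochondrial genes and 11.1% of all genes, against 4 and 10.4% with them. With lengths outside copies, 4 of 9 genes kept their rank. The high minus low share ran from -0.00787 to 0.144 points when 1 experiment was left out.

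Several log2 differences between high and low daughters changed sign, and none of them passed the test. With no replicate block mt-Rnr1 was -0.048. Without the extreme divisions mt-Rnr1 was -0.037, mt-Rnr2 -0.027, mt-Nd1 -0.0089, mt-Nd2 -0.015, mt-Nd4 -0.027, mt-Nd5 -0.031 and mt-Nd6 -0.021. In run 5 alone mt-Rnr1 was -0.20, mt-Rnr2 -0.12, mt-Nd1 -0.049, mt-Nd2 -0.057, mt-Nd4 -0.10, mt-Nd5 -0.040, mt-Nd6 -0.045, mt-Cytb -0.023 and mt-Tp -0.15. In run 4 alone mt-Tc was 0.53 and mt-Co1 0.061, and limma over divisions gave mt-Co1 0.045. Leaving out 1 experiment gave -0.081 to 0.050 for mt-Rnr1, -0.024 to 0.059 for mt-Rnr2, -0.0056 to 0.50 for mt-Tl1, -0.20 to 0.078 for mt-Tc, -0.035 to 0.018 for mt-Co1 and -0.016 to 0.062 for mt-Nd4.

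The intraclass correlation in run 5 was -0.087 for mt-Tq and 0.079 for mt-Tp, and without the extreme divisions -0.094 for mt-Tq and 0.067 for mt-Tp. Leaving out 1 experiment gave mt-Tq -0.013 to 0.058. Between runs, mt-Nd6 was 0.022 without the extreme divisions, and mt-Te was -0.023 with the nuclear total, -0.021 with no filter and -0.031 without the extreme divisions. Leaving out 1 experiment gave -0.84 to 0.0032 for mt-Tl1, -0.056 to 0.19 for mt-Nd2, -0.40 to 0.11 for mt-Ta, -0.15 to 0.039 for mt-Nd4, -0.017 to 0.071 for mt-Nd5, -0.19 to 0.070 for mt-Nd6, -0.25 to 0.14 for mt-Te and -0.18 to 0.0039 for mt-Tp. The cause of these changes was not tested. Precision is limited by 9 experiments and, for tRNA genes, by at most 11 counts in a cell.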
